A study of Caenorhabditis elegans with 6 samples.

Results

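Lysozyme and saposin-like protein genes of Caenorhabditis elegans were followed in messenger RNA counts from whole animals. The members were the genes whose symbol in the count table begins with lys, ilys or spp followed by a number. These were 39 of the 20189 protein-coding genes in the table: 10 lys, 6 ilys and 23 spp genes. The samples were 3 of CHX animals and 3 of no_CHX animals, all whole hermaphrodites at L4, the last larval stage. CHX animals had hatched from synchronized eggs placed on plates with 500 µg/ml of cycloheximide, a drug that blocks translation elongation, and were collected after 3 days. The no_CHX animals were grown without the drug and were collected after 2 days. All animals of both groups were kept at 23 °C and were rpl-36A(P55Q)/mIn1 heterozygotes, in which 1 copy of a gene for a large-subunit ribosomal protein is altered and the balancer mIn1 of chromosome II carries the other. Drug and time on the plate change together, so effects of the drug and of age cannot be told apart, and since nothing says whether replicates came from separate cultures, p-values measure the spread among these samples alone, perhaps a technical one.

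Lysozymes cleave the peptidoglycan wall of bacteria. In C. elegans the lys genes encode lysozymes related to those of protists, and the ilys genes encode lysozymes of the invertebrate type. The spp genes encode saposin-like proteins, also called caenopores, a family related to the amoebapores of amoebae, in which several members open pores in bacterial membranes. Many genes of these families are active in the intestine, where the worm both digests the bacteria it eats and meets pathogens, and insulin and p38 MAP kinase signalling are known to act on such defence genes.

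Libraries held between 313767 and 414781 counts, and 5641 genes had enough counts to be tested. Of the 39 members, 15 were tested, 13 had some counts but too few for the test, and 11 had no count in any sample. A count of 0 allows a level of up to 7.23 to 9.56 CPM (counts scaled to library size) of a library's total, depending on the library. Of the tested members, 12 reached the cutoff for low counts in all 6 samples and none reached it in samples of 1 group only. In CHX replicate 2 the summed level of the yolk protein genes, which the intestine makes, was 18263 CPM, against 8602 and 9314 CPM in the other CHX samples and 14721 to 17738 CPM in no_CHX samples. Results for the members are therefore also given without that library where they turn on it.

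The lysozyme gene lys-7 was higher in CHX animals, while 7 other members were lower: lys-2, lys-4, ilys-5, spp-1, spp-5, spp-16 and spp-17. The remaining 7 tested members, lys-1, lys-8, spp-3, spp-8, spp-10, spp-14 and spp-15, did not pass the test. Tests are edgeR's quasi-likelihood test over all tested genes with Benjamini-Hochberg adjustment at 0.05. Of all tested genes 10.3% were called higher and 14.9% lower, 25.2% in either direction. In CPM, all CHX samples lay above all no_CHX samples for lys-7 and below them for the same 7 members that were called lower, where 19.5% and 20.2% of all tested genes had such separation. The 15 tested members had a median of -0.65 in log2 fold change, beside 0.02 over all tested genes. With library totals in place of TMM factors, 1 member was called higher and 4 lower, 15.1% of all tested genes were higher and 10.7% lower, and the medians were -0.50 for the members and 0.18 for all genes. The number of members called lower was also 4 without CHX replicate 1 or without no_CHX replicate 3, and lys-7 was the 1 member called higher with any sample left out.

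**Figure D1:**
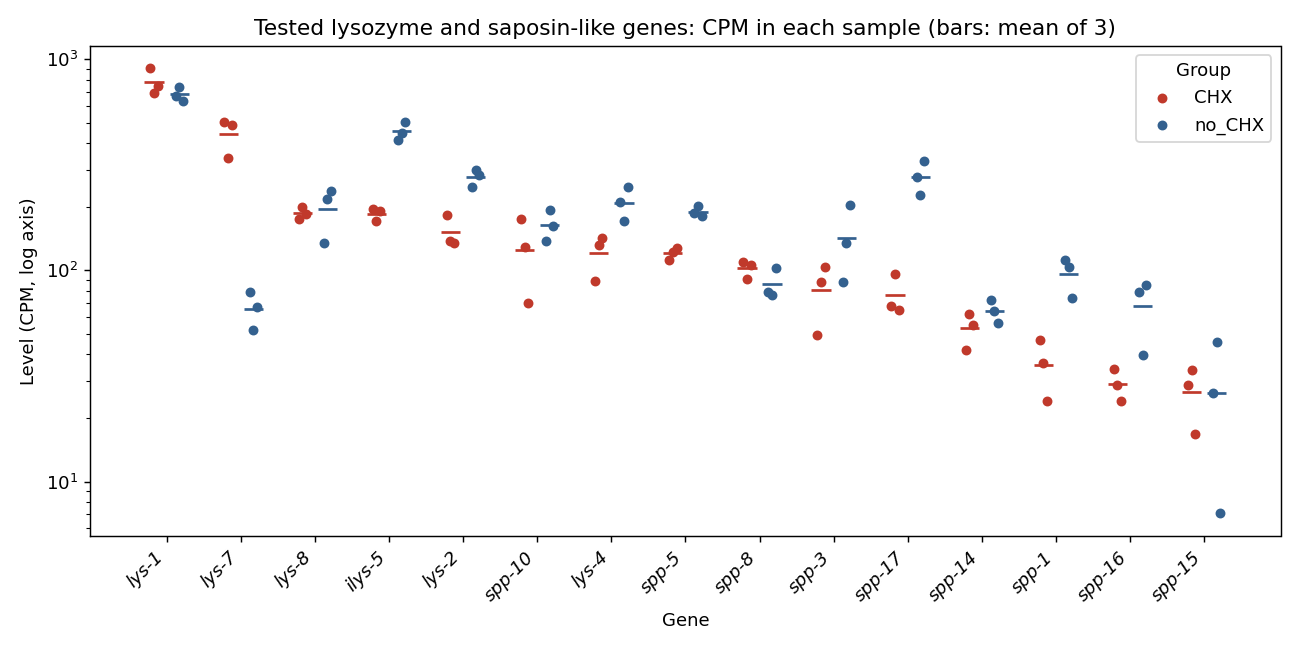
Level of the 15 tested members in each sample, in CPM on a log axis, with a horizontal bar at the mean of the 3 samples of each group. The CHX samples of lys-7 lie between 342 and 504 CPM, above all no_CHX samples of that gene, while those of spp-17 and ilys-5 lie below their no_CHX samples.

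Among the lys genes, lys-7 had the largest change of the tested members in either direction. The lys-7 gene (WBGene00003096) lies on chromosome V from 3481421 to 3482600 in WBcel235 coordinates, on the minus strand, with 3 exons. It is known as a target of the insulin pathway factor DAF-16 and as a gene that affects resistance to several bacterial pathogens. Its counts were 193, 132 and 202 in CHX samples, against 24, 17 and 19 in no_CHX samples. These correspond to 504, 342 and 486 CPM in CHX samples, against 78.7, 52.1 and 67.2 CPM in no_CHX samples. All 3 CHX samples were several times above every no_CHX sample, and the lowest of them was CHX replicate 2. The level was 444 ± 88.7 CPM in CHX animals and 66.0 ± 13.3 CPM in no_CHX animals (SD, n = 3 each), a 6.73-fold difference (log2 fold change 2.75, SE 0.24, adjusted p 1.48e-09). Without CHX replicate 2 the log2 fold change was 2.92, and the gene was called under all 13 alternative settings.

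On the same chromosome, lys-1, lys-2 and lys-3 stand side by side within 5718 bases, with lys-1 on the plus strand and the others on the minus strand. The 3 neighbours did not share a pattern. The lys-1 gene (10277827 to 10279127), known to be induced on pathogenic bacteria, had 906, 695 and 748 CPM in CHX samples, against 669, 741 and 636 CPM in no_CHX samples. CHX replicate 1 was the highest, the groups overlapped, and the gene was not called (log2 fold change 0.20, SE 0.15, adjusted p 0.358). Relative to raw library totals the groups did not overlap, with a lowest CHX sample at 685 CPM and a highest no_CHX sample at 671 CPM. Fitted with totals of the tested genes and no TMM factors, lys-1 had a log2 fold change of 0.35, again without a call (adjusted p 0.0756).

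The next gene, lys-2 (10280310 to 10281474), another lysozyme of the protist type, had 183, 137 and 135 CPM in CHX samples, against 249, 300 and 283 CPM in no_CHX samples. Every CHX sample was below every no_CHX sample, and the gene was 1.83-fold lower in CHX animals (log2 fold change -0.87, SE 0.22, adjusted p 0.00352). The ratio of raw lys-1 counts to raw lys-2 counts needs no scaling of libraries. It was 4.96, 5.06 and 5.55 in CHX samples, against 2.68, 2.47 and 2.25 in no_CHX samples. The ratios did not overlap between groups (exact two-sided permutation p 0.1, the smallest that 3 samples against 3 allow). This pair was chosen after the values had been seen. The lys-3 gene was too thinly counted for the test, with 8, 4 and 6 counts in CHX samples and 0, 1 and 0 in no_CHX samples. Scaled to library size, the ratio of the summed 18 and 1 counts was 13.9, with an exact 95% counting interval of 2.19 to 579. Without a filter on low counts its adjusted p was 0.0904, and 0.0661 with a filter at a mean of 5 CPM.

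The lys-4 gene leads a second run of 3, with lys-5 and lys-6, within 6505 bases of chromosome IV. Its levels were 88.8, 132 and 142 CPM in CHX samples, against 210, 171 and 247 CPM in no_CHX samples. The groups were separate, and lys-4 was 1.72-fold lower in CHX animals (log2 fold change -0.78, SE 0.25, adjusted p 0.0217). The call was lost with library totals (adjusted p 0.0637), without CHX replicate 1 (0.131) and without no_CHX replicate 3 (0.0904). Of its neighbours, lys-5 had no counts and lys-6 had 1. On chromosome II, which the balancer mIn1 rearranges in all of these animals, lys-8 (5586165 to 5587648) had 175, 200 and 185 CPM in CHX samples. Its no_CHX samples had 134, 217 and 237 CPM. The range in no_CHX animals enclosed that in CHX animals, and the log2 fold change was -0.07 (SE 0.23, adjusted p 0.851), with a positive sign under library totals. The remaining lys genes, lys-9 and lys-10, had 0 and 1 counts in all.

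The makeup of the lys transcripts differed between the groups, with the largest difference at lys-7. That gene supplied 25.9% ± 3.02 of lys counts in CHX animals and 4.65% ± 1.18 in no_CHX animals (SD, n = 3 each). The share of lys-1 was 45.9% ± 2.19 in CHX animals and 47.7% ± 3.82 in no_CHX animals, a difference within the spread. The share of lys-2 was 8.88% ± 0.929 in CHX animals and 19.3% ± 0.818 in no_CHX animals. That of lys-4 was 7.24% ± 2.20 in CHX animals and 14.7% ± 2.77 in no_CHX animals. For lys-8 it was 11.1% ± 1.95 in CHX animals and 13.6% ± 3.17 in no_CHX animals, again within the spread.

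Of the invertebrate-type lysozymes, ilys-5 alone was tested and it fell. This gene (WBGene00017691; chromosome X, 6533493 to 6536840, minus strand, 5 exons) had 196, 171 and 190 CPM in CHX samples, against 416, 447 and 502 CPM in no_CHX samples. The 2 groups were far apart relative to their spread, at 186 ± 12.96 CPM in CHX animals and 455 ± 43.4 CPM in no_CHX animals (SD, n = 3 each). The gene was 2.45-fold lower in CHX animals (log2 fold change -1.29, SE 0.19, adjusted p 6.26e-06) and was called under all 13 alternatives. Per kilobase of coding sequence it was the most abundant tested member in no_CHX animals, at 1091 CPM per kilobase, and the third in CHX animals, at 445.

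The genes ilys-3, ilys-2 and ilys-1 lie in a row within 6994 bases of chromosome IV, and none had counts enough for the test. ilys-3, whose product digests bacteria in the pharynx and gut, had 1, 6 and 0 counts in CHX samples and none in no_CHX samples, so that 6 of its 7 counts came from CHX replicate 2 and 1 is left without that library. Fitted without a filter on low counts, ilys-3 was not called (adjusted p 0.243). ilys-2 had 5, 7 and 22 counts in CHX samples and 7, 1 and 2 in no_CHX samples. The groups overlapped, and 22 of its 34 counts in CHX animals lay in CHX replicate 3 (ratio 2.62, 95% counting interval 1.27 to 5.96). That interval leaves out the spread between samples. In the edgeR fits ilys-2 was not called without a low-count filter (adjusted p 0.268) or with a filter at a mean of 5 CPM (0.215). ilys-4 had 20 counts in CHX animals and 20 in no_CHX animals (ratio 0.772, interval 0.394 to 1.51). No counts were found for ilys-1 and ilys-6.

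**Figure D2:**
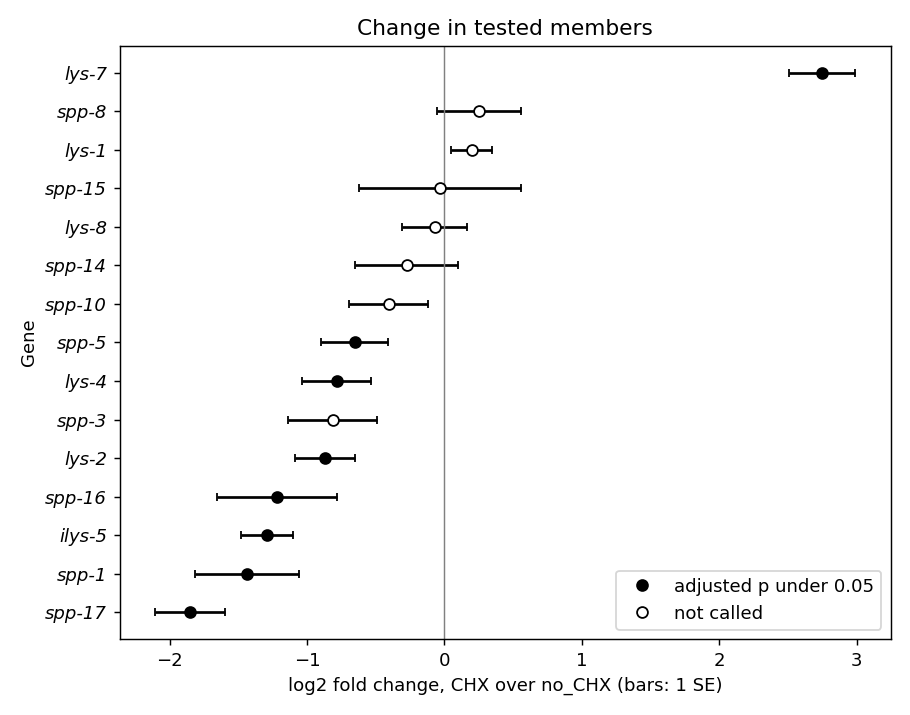
Log2 fold change of CHX over no_CHX for each tested member, with bars of 1 SE and filled points for an adjusted p under 0.05. The values run from -1.85 for spp-17 to 2.75 for lys-7, and lys-7 is the one filled point to the right of 0.

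Among the saposin-like genes, 4 of 9 tested members were lower in CHX animals and none was higher by edgeR or DESeq2, nor at an unadjusted p under 0.05. The number lower was 2 with DESeq2 and 2 with library totals. Their median log2 fold change was -0.65. The largest fall was that of spp-17 (WBGene00005002; chromosome I, 1016405 to 1017180, plus strand, 2 exons). It had 67.9, 95.9 and 64.9 CPM in CHX samples, against 275, 227 and 329 CPM in no_CHX samples. The highest CHX sample, replicate 2, was well under the lowest no_CHX sample. The gene was 3.62-fold lower in CHX animals (log2 fold change -1.85, SE 0.25, adjusted p 2.59e-06) and was called under all 13 alternatives. Its neighbour spp-23, on the same strand within a span of 2825 bases, had 11 counts in CHX animals and 15 in no_CHX animals, too few for the test (ratio 0.566, interval 0.235 to 1.32).

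The gene spp-1 encodes a caenopore whose recombinant protein kills bacteria, and it is known to be under the control of DAF-16, as lys-7 is. Located on chromosome III from 10355124 to 10355668, it had 47.0, 36.3 and 24.1 CPM in CHX samples, against 111, 104.1 and 74.2 CPM in no_CHX samples. All CHX samples were below all no_CHX samples, and spp-1 was 2.70-fold lower in CHX animals (log2 fold change -1.43, SE 0.38, adjusted p 0.0054). It kept its call under all 13 alternatives, with adjusted p between 0.00533 and 0.0446. The direction was thus opposite to that of lys-7, and no test was made of the difference between these genes.

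On the X chromosome, spp-3, spp-2, spp-6, spp-4 and spp-5 stand within 5416 bases. spp-5, for caenopore-5, which permeabilizes bacteria in the gut, had 112, 121.8 and 128 CPM in CHX samples, against 187, 202 and 180 CPM in no_CHX samples. The groups were separate and the spread small, yet the adjusted p was only just under the threshold (1.57-fold lower, log2 fold change -0.65, SE 0.24, adjusted p 0.0458). The call was lost under 12 of 13 alternatives, with DESeq2 among them (adjusted p 0.0871), and with any 1 sample left out the adjusted p was 0.0585 to 0.14.

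The gene spp-3, also for a pore-forming antibacterial protein of the intestine, had 49.6, 88.1 and 103 CPM in CHX samples, against 88.5, 135 and 205 CPM in no_CHX samples. The groups overlapped and the gene was not called (log2 fold change -0.81, SE 0.33, adjusted p 0.0662). Without no_CHX replicate 1 it passed (log2 fold change -1.06, adjusted p 0.0145), while the log2 fold change was -0.49 without no_CHX replicate 3 (adjusted p 0.358) and -0.56 without CHX replicate 1 (adjusted p 0.274). The untested neighbour spp-2 had 6, 4 and 6 counts in CHX samples and 13, 10 and 6 in no_CHX samples (ratio 0.426, counting interval 0.216 to 0.811). In the edgeR fits spp-2 was not called without a low-count filter (adjusted p 0.346) or with a filter at a mean of 5 CPM (0.239). In all samples spp-4 had 7 counts and spp-6 had none.

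The gene spp-16 (chromosome V, 10900563 to 10901303) had 33.9, 28.5 and 24.1 CPM in CHX samples, against 78.7, 39.8 and 84.8 CPM in no_CHX samples. Its no_CHX replicate 2 lay near the CHX samples but above them. It was 2.33-fold lower in CHX animals (log2 fold change -1.22, SE 0.44, adjusted p 0.0406), and the call was lost under 10 of 13 alternatives. It was lost in 5 of the 6 settings with a sample left out (adjusted p 0.0644 to 0.142) and held without no_CHX replicate 2 (0.0156). The other losses were with DESeq2 (0.078), library totals (0.073), no filter (0.0927), the filter at 5 CPM (0.0589) and the replicate block (0.0656). On the opposite strand it overlaps F32D8.7, which had 24 counts in CHX animals and 31 in no_CHX animals. Whether counting used strand is not given in the sources used here. The same limit holds for lys-8, which overlaps C17G10.13 (46 counts in CHX animals, 36 in no_CHX animals). It also holds for spp-15, which overlaps C48E7.6 (11 counts in CHX animals, 6 in no_CHX animals). The gene hlh-12, which overlaps spp-10, had 0 counts in both groups.

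The other 4 tested spp genes showed no difference that passed. spp-10 and spp-8 follow each other on the plus strand of chromosome IV within 6529 bases, and with 11 and 9 exons they have more than any other member. spp-10 had 175, 130 and 69.8 CPM in CHX samples, against 138, 193 and 163 CPM in no_CHX samples, so that CHX replicate 1 lay within the no_CHX range and the other CHX samples below it (log2 fold change -0.41, SE 0.29, adjusted p 0.317). Its log2 fold change was -0.10 without CHX replicate 3 (adjusted p 0.854) and -0.72 without CHX replicate 1 (adjusted p 0.12). spp-8 had 110, 90.7 and 106 CPM in CHX samples, against 78.7, 76.6 and 103 CPM in no_CHX samples. No_CHX replicate 3 fell among the CHX samples (log2 fold change 0.25, SE 0.30, adjusted p 0.578). spp-14 was at 53.1 ± 10.4 CPM in CHX animals and 64.3 ± 7.78 CPM in no_CHX animals, and spp-15 at 26.4 ± 8.66 CPM in CHX animals and 26.4 ± 19.4 CPM in no_CHX animals (SD, n = 3 each). The groups overlapped for both (log2 fold changes -0.28 with SE 0.37 and -0.03 with SE 0.59; adjusted p 0.625 and 0.972).

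Of the spp genes below the filter, spp-18 had the largest ratio towards CHX animals. Its counts were 13, 13 and 2 in CHX samples and 4, 0 and 1 in no_CHX samples. CHX replicate 3 overlapped the no_CHX samples (ratio 4.32, 95% counting interval 1.65 to 14.3, adjusted p 0.13 without a low-count filter). spp-13 had 8 counts in CHX animals and 16 in no_CHX animals, with 11 of those 16 in no_CHX replicate 2. spp-7 had 5 counts in each group, and spp-22 had 3 in CHX animals and 2 in no_CHX animals. No counts were found for spp-6, spp-9, spp-11, spp-12, spp-19, spp-20 and spp-21. spp-12 is known from a pair of pharyngeal neurons, and the neighbours spp-9 and spp-21 on the X chromosome and spp-20 and spp-19 on chromosome V were empty together. Another 8 genes that carry spp symbols in a name table of the organism stand under sequence names in the count table. They lie outside the members, and each had between 0 and 3 counts in all.

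Levels can be compared between genes only per length of coding sequence. On that scale lys-1 led in CHX animals at 876 ± 123 CPM per kilobase, followed by lys-7 at 523 ± 104.5, ilys-5 at 445 ± 31.1 and spp-5 at 390 ± 24.9. In no_CHX animals ilys-5 led at 1091 ± 104.03 CPM per kilobase, followed by spp-17 at 888 ± 164, lys-1 at 763 ± 60.0 and spp-5 at 614 ± 36.3. In CHX animals lys-7 and ilys-5 were closer to each other than the SD of lys-7, as were spp-17 and lys-1 in no_CHX animals relative to the SD of spp-17. lys-7 was thus second of 15 in CHX animals and rank 13 of 15 in no_CHX animals, and spp-17 was sixth in CHX animals and second in no_CHX animals.

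Summed over all members, tested or not, the classes took different shares of the libraries. The lys genes held 0.187%, 0.150% and 0.171% of counts in CHX samples, against 0.116%, 0.134% and 0.133% in no_CHX samples. The ilys genes held 0.0235% ± 0.00217 in CHX animals and 0.0435% ± 0.00407 in no_CHX animals. The spp genes held 0.0706% ± 0.0073 in CHX animals and 0.107% ± 0.0062 in no_CHX animals (SD, n = 3 each). For each class the groups did not overlap, with lys higher and ilys and spp lower in CHX animals (exact two-sided permutation p 0.1 each, the smallest possible). The ilys share mostly reflects 1 gene, as ilys-5 supplied 78.7% ± 7.46 of ilys counts in CHX animals and 93.2% ± 2.16 in no_CHX animals. Of the others, ilys-2 and ilys-3 had more counts in CHX animals (34 and 7) than in no_CHX animals (10 and 0). ilys-4 had 20 in each group. The difference for lys genes was 0.0417 percentage points, and 0.0256 points when TMM factors entered the denominator. With lys-7 left out, a choice made after its values had been seen, the other lys genes held 0.137%, 0.116% and 0.123% of counts in CHX samples, against 0.109%, 0.130% and 0.127% in no_CHX samples. These values overlapped (difference 0.00335 points, exact two-sided permutation p 0.8), so that the separation of the lys share was not seen without lys-7.

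The exact 95% binomial intervals of single libraries, which cover counting error only, lay between 0.138% and 0.201% for lys genes in CHX samples and between 0.105% and 0.147% in no_CHX samples. Those intervals overlapped, while those of ilys genes did not (0.0178% to 0.0314% in CHX samples, 0.0334% to 0.0561% in no_CHX samples). Nor did those of spp genes (0.0548% to 0.0845% in CHX samples, 0.0902% to 0.125% in no_CHX samples). All members together held 0.263% ± 0.0185 in CHX animals and 0.278% ± 0.0193 in no_CHX animals (SD, n = 3 each). This difference of -0.0144 percentage points was smaller than the SD (exact permutation p 0.4). It was -0.0442 points when TMM factors entered the denominator, with an exact permutation p of 0.1. Its size also turned on single libraries, being -0.00629 points without CHX replicate 2, -0.00677 without no_CHX replicate 3, -0.0245 without CHX replicate 1 and -0.0253 without no_CHX replicate 1 (exact permutation p 0.7, 0.7, 0.3 and 0.2). Without lys-7, left out after its values had been seen, the members held 0.219% ± 0.0123 in CHX animals and 0.272% ± 0.02 in no_CHX animals.

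**Figure D3:**
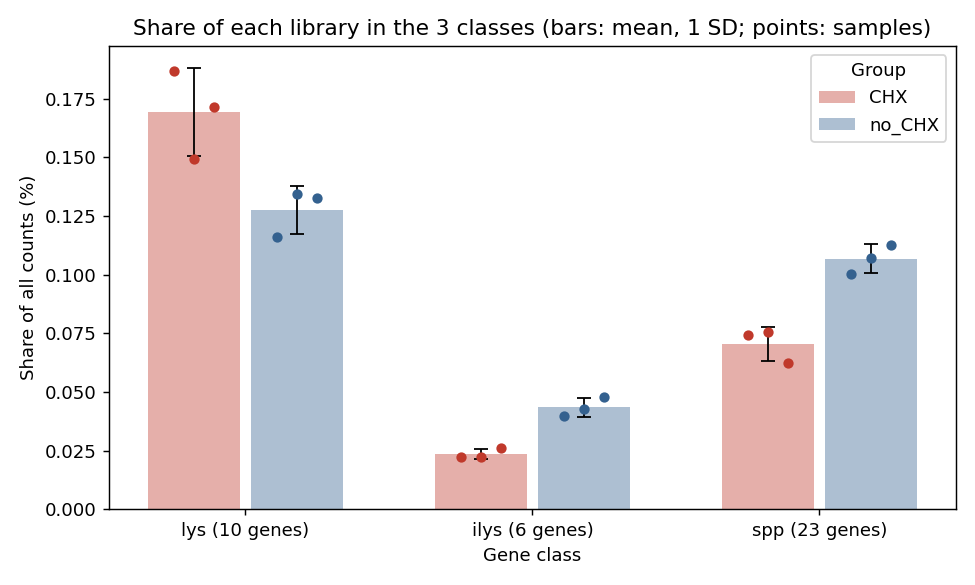
Share of all counts in the lys, ilys and spp genes, in percent, with bars at the group mean, 1 SD and a point for each sample. The lys share is higher in CHX samples (0.169% against 0.128% on average), and the ilys and spp shares are lower.

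Marker genes of the intestine, the tissue in which many members are active, were lower in CHX animals as well. Of 13 markers, 9 were tested, 4 of them were lower, none was higher by edgeR or DESeq2 or at an unadjusted p under 0.05, and their median log2 fold change was -0.74. By edgeR 10.3% of all tested genes were higher and 14.9% lower, shares that are also the background for the gene lists below. The summed level of all 13 was 2278 to 2480 CPM in CHX samples and 3531 to 4209 CPM in no_CHX samples, and no marker was at 0 in all samples. The microvillar actin gene act-5 had 823 ± 73.4 CPM in CHX animals and 1467 ± 38.6 CPM in no_CHX animals (SD, n = 3 each; log2 fold change -0.83, adjusted p 1.74e-05). The intermediate filament gene ifb-2 was 1.52-fold lower (adjusted p 0.00335). With DESeq2, with library totals or without CHX replicate 1, 2 intestine markers were lower. The part of this in the lower levels of ilys-5, lys-2, spp-1 and spp-17 was not tested. In whole animals fewer cells of a type and less RNA per cell cannot be told apart. lys-7 was higher in the same libraries.

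By edgeR all 6 body wall muscle markers were lower, or 3 with library totals and 4 with DESeq2 (summed level 5212 to 5780 CPM in CHX samples, 6872 to 10008 in no_CHX samples), and 3 of 6 germline markers were higher and 1 was lower (2284 to 2290 CPM in CHX samples, 1819 to 2125 in no_CHX samples). Of the pharynx markers 4 of 10 were tested and none was called by edgeR or DESeq2, with 1 at an unadjusted p under 0.05 (378 to 454 CPM in CHX samples, 403 to 580 in no_CHX samples). The muscle myosin genes myo-3 and unc-54 had 293 ± 56.8 and 2579 ± 265 CPM in CHX animals and 680 ± 132 and 4329 ± 838 CPM in no_CHX animals (SD, n = 3 each; adjusted p 1.02e-05 and 3.06e-05). unc-15, for paramyosin, was 1.34-fold lower (adjusted p 0.0249), a call lost with DESeq2 (0.0532), with library totals (0.149), without a filter (0.0733), with the replicate block (0.055) and without CHX replicate 2 (0.122), CHX replicate 3 (0.0827) or no_CHX replicate 1 (0.163). In the germline list mex-5 had 535 ± 44.9 CPM in CHX animals and 187 ± 23.0 CPM in no_CHX animals (SD, n = 3 each; adjusted p 5.37e-07). pie-1 was 2.57-fold higher (adjusted p 1.05e-04), glh-1 was 1.47-fold lower (adjusted p 0.0029) and pgl-1 was not called (adjusted p 0.171). The pharyngeal myosin genes myo-1 and myo-2 were not called (adjusted p 0.748 and 0.426).

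Of 6 hypodermis markers 5 were tested, 2 were lower and none was higher by edgeR or DESeq2 or at an unadjusted p under 0.05 (1005 to 1240 CPM in CHX samples, 1241 to 1654 in no_CHX samples). These were the collagen genes sqt-3, at 228 ± 102 CPM in CHX animals and 529 ± 85.6 CPM in no_CHX animals (SD, n = 3 each; adjusted p 1.28e-04), and rol-6, which was 2.16-fold lower (adjusted p 0.0171, and 0.132, 0.0738 and 0.0517 without CHX replicate 3, no_CHX replicate 2 or no_CHX replicate 3). The adult collagen gene col-19 was not called (adjusted p 0.564). Of 6 neuron markers 2 were tested, egl-3 and snb-1, and none was called by edgeR or DESeq2 or had an unadjusted p under 0.05 (185 to 202 CPM in CHX samples, 211 to 302 in no_CHX samples). All 6 yolk protein genes were tested and none was called by edgeR or DESeq2, with 1 at an unadjusted p under 0.05, and the most abundant, vit-6 and vit-2, had adjusted p of 0.454 and 0.62. The 3 coelomocyte markers, none of them tested, had at most 26.2 CPM together in any sample.

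Among 24 tested regulators of immunity, of 38 in the table, 1 was higher and 3 were lower, and the median was -0.01 (log2). Of all tested genes 10.3% were higher and 14.9% lower, 25.2% in either direction, so regulators were not called more often than genes at large. The gene irg-7, which acts upstream of the p38 pathway in the intestine, had 2306 ± 121 CPM in CHX animals and 3475 ± 395 CPM in no_CHX animals (SD, n = 3 each; log2 fold change -0.59, adjusted p 1.79e-04). vhp-1, for a phosphatase that restrains this pathway and that of JNK, was 1.66-fold lower (adjusted p 0.0287), tpa-1, for a protein kinase C, was lower (log2 fold change -0.92, adjusted p 0.0478), and daf-2, for the insulin receptor, was higher (log2 fold change 0.68, adjusted p 0.0347). tpa-1 and daf-2 were named after their values had been seen. The calls of vhp-1, tpa-1 and daf-2 were lost with DESeq2 (adjusted p 0.0615, 0.0965 and 0.0713) and with the replicate block (0.051, 0.0683 and 0.0598). With a sample left out, vhp-1 and tpa-1 held only without no_CHX replicate 2 (0.00264 and 0.0405), and daf-2 only without CHX replicate 3 (0.0152). Both vhp-1 and tpa-1 were lost with library totals (0.0801 and 0.101) and without a filter (0.0555 and 0.14). With the filter at a mean of 5 CPM and with upper-quartile scaling factors tpa-1 was lost too (0.0841 and 0.0539). With library totals 3 regulators were higher and 1 was lower. With DESeq2 1 regulator passed, and the number was also 1 without CHX replicate 1, CHX replicate 2 or no_CHX replicate 1. The factor gene zip-2 was at 401 ± 38.8 CPM in CHX animals and 374 ± 65.1 CPM in no_CHX animals, without a call (adjusted p 0.728). For daf-16 the log2 fold change was -0.03 (SE 0.21, adjusted p 0.932).

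Other antimicrobial effectors were mostly too low to test, with 5 of 73 tested and 34 at 0 in all samples. Of the 5, 3 were higher and fip-5 was not called. The 1 that was lower was irg-7, which is also counted among the regulators above. The infection response gene irg-5, for a CUB-like protein induced by pathogens, had 691 ± 93.7 CPM in CHX animals and 155 ± 12.9 CPM in no_CHX animals (SD, n = 3 each), a 4.47-fold difference (log2 fold change 2.16, SE 0.19, adjusted p 1.48e-09). The others, irg-4, also CUB-like, and thn-2, for a thaumatin-like protein, were higher with log2 fold changes of 1.24 and 1.51 (adjusted p 0.0108 and 0.0017). They were named after their values had been seen, and irg-4 lost its call without CHX replicate 1 (adjusted p 0.103).

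Lysosomal and gut hydrolases share a digestive role with the lysozymes. Their list also held lmp-1, laat-1, cup-5 and ctns-1, genes for lysosomal membrane proteins, which were tested and not called. Of 35 tested genes of the list, 3 were higher and 12 lower, where 10.3% of all tested genes were higher and 14.9% lower. Lower calls thus took a larger share of the list than of all tested genes, a difference that was not tested. The median of the 35 was -0.18 (log2). The cathepsin B-like gene cpr-6 had 1122 ± 199 CPM in CHX animals and 2283 ± 330 CPM in no_CHX animals (log2 fold change -1.02, adjusted p 1.73e-06), and the aspartyl protease gene asp-1 was 1.43-fold lower (adjusted p 8.99e-04). In contrast cpr-1, another cathepsin B-like gene, was higher, at 685 ± 17.2 CPM in CHX animals and 301 ± 42.4 CPM in no_CHX animals (SD, n = 3 each; log2 fold change 1.18, adjusted p 4.85e-06).

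**Figure D4:**
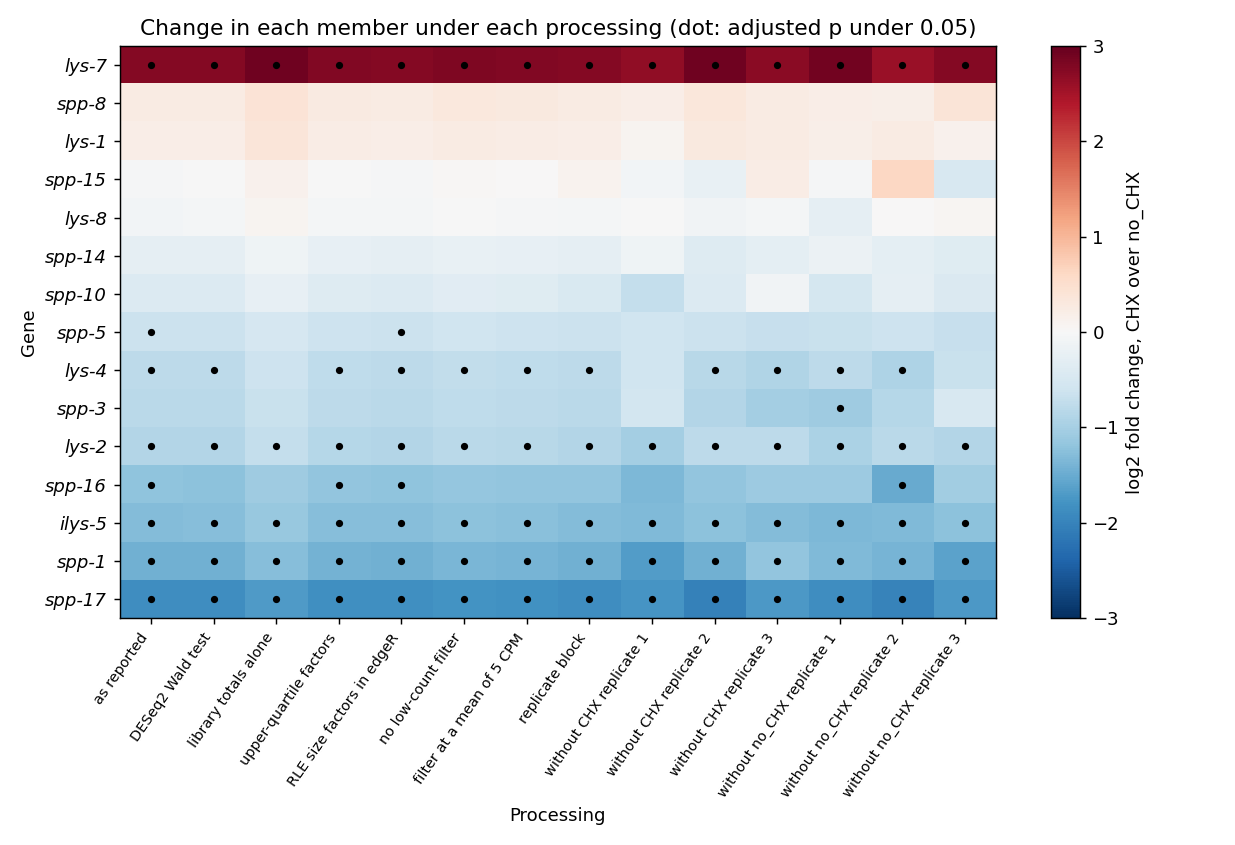
Log2 fold change of each tested member (colour) as reported and under the 13 alternative settings, with a dot where the adjusted p was under 0.05. lys-7, lys-2, ilys-5, spp-1 and spp-17 have a dot in every column, while spp-5 has 1 beyond the reported setting and spp-16 has 3.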

How the data were processed

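The authors deposited raw counts of reads in coding sequence, for 1 transcript of each protein-coding gene, and the row names give WBcel235 positions, per the file headers. Per the labels' protocols, RNA was taken with Trizol, RNase H removed ribosomal RNA, and libraries came from a SMARTER kit. WBcel235 and DESeq2 are named in the submitters' processing notes. How reads were aligned and counted, whether strand was used and what was done with reads of several matches is not given in the sources used here, so that close copies may share reads. Analysis was in R 4.3.3 with edgeR 4.0.16: filterByExpr (minimum count 10, minimum total 15), TMM factors, robust quasi-likelihood fits over 5641 genes and Benjamini-Hochberg adjustment. SE is the absolute log2 fold change over the square root of F. Unless raw totals are named, CPM divide by TMM-adjusted totals of the tested genes. Fits with library totals used totals of the tested genes without TMM factors. For thinly counted genes the ratio of summed counts has an exact interval, which covers counting error only. The floor is 3 counts. Coding lengths and exons came from the Ensembl annotation of WBcel235, for 31 members by transcript and for 8 by coding sequence name. Neighbours are members with at most 1 other gene of the table between them. The test was checked on simulated counts. Alternatives included DESeq2 1.42.0, and figures used matplotlib 3.10.9. All 39 members were accounted for and all 15 tested ones given with values. From each other list up to 2 called genes and the 2 most abundant were named. The genes tpa-1, daf-2, daf-16, irg-4 and thn-2 were named outside this rule. The members and lists were chosen with earlier results of these data known. Samples were not treated as paired by replicate number, except in the replicate block.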

Additional observations from a re-analysis of the deposited data

How the results depend on the processing

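The 13 alternatives were DESeq2, 3 other scalings, 2 other filters, a replicate block and each sample left out in turn. lys-7, lys-2, ilys-5, spp-1 and spp-17 were called under all 13. Of the 15 tested members, 13 kept their sign under every alternative. lys-8 changed sign with library totals (0.0819) and ranged from -0.279 to 0.0657 with a sample left out. spp-15 changed sign with library totals (0.119), no filter (0.0289), the filter at a mean of 5 CPM (0.0119) and the replicate block (0.115), and ranged from -0.47 to 0.62 with a sample left out. Members called lower numbered 4 with library totals and 4 to 6 with a sample left out, 4 of them without CHX replicate 1 or no_CHX replicate 3. The cause of these changes was not tested. The members' median was -0.50 with library totals, and, with more members tested, -0.30 without a filter and -0.49 with the filter at 5 CPM. It was -0.72 to -0.45 with a sample left out. Intestine markers called were 2 with DESeq2, 2 with library totals and 2 to 5 with a sample left out. Immune regulators called were 1 with DESeq2, 2 with no filter, 1 with the replicate block and 1 to 3 with a sample left out. Same-numbered samples showed no shared deviation (correlations -0.05, -0.03 and -0.01). At this depth counting noise weighs on such values, so a pairing by number is not excluded. With the replicate block the adjusted p was 0.073 for spp-5 and 0.0656 for spp-16. With TMM factors in the denominator the differences in share were 0.0256 points for lys, -0.0238 for ilys, -0.0461 for spp and -0.0442 for all members. With lys-7 left out, chosen after seeing the data, they were 0.00335 for lys and -0.0527 for all members. At this depth a member without a call is not shown to be unchanged.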
